A study of Rattus norvegicus with 24 samples.

Results

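Fiber-type transcription factors are represented here by 9 genes, Six4, Eya1, Eya4, Sox6, Tbx15, Prox1, Vgll2, Tead1 and Tead4, out of 15273 gene symbols in the deposited transcript table. They were chosen by name, as genes known to set or hold a fast or slow fiber program, and the values of all transcripts that carry a symbol were summed per gene. RNA-seq was performed on the tibialis anterior (TA), a fast dorsiflexor of the lower leg, of 12 adult male Wistar rats, 3 per time point, that trained for 2, 10, 20 or 30 days. The left TA was stimulated once a day through an implanted pulse generator so that it contracted against resistance from the plantarflexors, and the right TA of the same animal was left unstimulated as the contralateral muscle, giving 24 muscles in all. Each muscle was taken 1 h after the final bout. The contralateral muscles came from animals that carried the same implant and trained the other leg, so they are within-animal controls and not muscles of untrained rats. The values were treated as TPM-type because all samples add up to an equal sum, although DESeq2 normalization is named for them, and whether they were scaled for transcript length could not be shown, so an order of levels between genes holds on the listed scale only. Each sample was divided here by a median-of-ratios factor of between 0.778 and 1.14.

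Muscle fibers are called slow or fast by the myosin heavy chain they carry, and Myh4 encodes the fastest form in rodents, type IIB. SIX4 is a homeodomain protein that binds MEF3 elements together with EYA coactivators and switches on fast genes, SOX6 represses slow genes in fast fibers, TBX15 is a T-box factor found in glycolytic fibers, and PROX1 is a homeobox factor that favors the slow program and is also known from lymphatic endothelium. TEAD1 and TEAD4 bind MCAT elements in many muscle promoters and act with cofactors of the YAP and VGLL families. Among these VGLL2 is the muscle-restricted member.

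In the 12 contralateral muscles the members ran over a wide range of listed values. Tbx15 was the highest at 85.5 ± 10.2 (mean ± SD, n = 12, scaled value), followed by Vgll2 at 35.2 ± 4.27, and these did not overlap each other or the rest, since the lowest Tbx15 value was 70.7 and Vgll2 lay between 27.7 and 42.4. Tead4 (11.3 ± 3.08) and Tead1 (10.5 ± 5.41) came next and could not be ordered within their spread, nor could Tead1 and Six4 (8.21 ± 1.58). Eya1 (4.71 ± 0.824) and Sox6 (4.11 ± 2.01) overlapped in the same way, and Eya4 lay at 1.94 ± 0.756 with its top at 2.87, inside the range of Sox6, which began at 1.37. Prox1 lay between 0.0732 and 0.323 in all 24 muscles, below the minimum value of 1 in at least 3 muscles set for testing, so 8 of the 9 members were tested among 11196 genes.

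Most members rest on a single annotated transcript: 6 have 1 transcript in the table and 3 have 2. Positions are those of rn6 (Rnor_6.0). Tbx15-201 lies at chr2:201289357-201390745, Vgll2-201 at chr20:33077106-33082962, Tead4-201 at chr4:161540130-161587222, Six4-201 at chr6:95984868-95998529, Eya4-201 at chr1:23409408-23610164 and Prox1-201 at chr13:108382399-108443294. Of the genes with a pair of transcripts, Eya1 (chr5:4373626-4513142) drew 75.1% of its contralateral level from Eya1-201, Tead1 (chr1:177495782-177707061) drew 82.0% from Tead1-202, and Sox6 (chr1:185673177-186182829) drew 96.2% from Sox6-201.

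The fall of the main Myh4 transcript is the frame for the comparison. Of 6 transcripts that carry the Myh4 symbol, Myh4-203 (chr10:53778662-53801603) was the highest in the contralateral muscles, and the others include transcripts at positions upstream in the same myosin cluster, so the single transcript was followed in place of the sum. In the 12 contralateral muscles it lay between 4974 and 7888, with a median of 6813. After 2 days the trained muscles held 6378, 3443 and 3200, after 10 days 270.0, 132 and 663, after 20 days 160, 66.0 and 70.7, and after 30 days 31.4, 36.6 and 289. It was lower than in the opposite leg in 12 of 12 animals, and from 10 days on every trained muscle lay below every contralateral muscle. On the log2(value + 1) scale it differed by -0.68 at 2 days (limma, adjusted p = 0.307), -4.52 at 10 days (adjusted p = 1.41e-07), -6.17 at 20 days (adjusted p = 2.25e-09) and -6.54 at 30 days (adjusted p = 3.29e-09).

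The 250 bases before the Myh4 start site, given by RefSeq on GRCr8 (chr10:52421898-52422147, plus strand), are shown because the TEAD members, the SOX member and the myogenic E-box factors are known to bind letters of the kind it holds. Capitals mark, in order, an MCAT (CATTCC), an E-box (CANNTG), a SOX core (ACAAT, here on the opposite strand) and a second E-box, found by a search of both strands for these and for MEF3 (TCAGGTT).
Myh4 promoter: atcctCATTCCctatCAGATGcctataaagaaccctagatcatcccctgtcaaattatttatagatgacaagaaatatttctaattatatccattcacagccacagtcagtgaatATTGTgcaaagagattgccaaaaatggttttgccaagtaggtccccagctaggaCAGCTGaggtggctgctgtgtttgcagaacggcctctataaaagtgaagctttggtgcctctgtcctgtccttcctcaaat
The MCAT starts 245 bases before the start site, the SOX core 135, and the E-boxes 235 and 81, and no letters of MEF3 were in this window. Matches of this kind are common: of 33469 rat promoters of the same length 12.1% hold an MCAT, 3.30% a MEF3, 30.0% a SOX core and 65.5% an E-box. Among the 14 promoters given for a list of fast fiber genes 3 held an MCAT, 1 a MEF3, 1 a SOX core and 12 an E-box, against 2, 0, 5 and 12 of 12 for slow fiber genes. These matches describe the letters and not binding.

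Against the 12 pooled contralateral muscles, 1 of 8 tested members was lower after 2 days (Six4) and 0 were higher, beside 13.5% of all tested genes lower and 15.4% higher. After 10 days 2 were lower (Six4 and Tbx15) and 1 higher (Vgll2), beside 13.3% and 15.6% of all genes. After 20 days 2 were lower (Eya1 and Tbx15) and 1 higher (Vgll2), beside 9.64% and 11.7%, and after 30 days 1 was lower (Tbx15) and 0 higher, beside 9.46% and 11.1%. With so few members these shares cannot be set apart from the background. The median member difference was -0.14, -0.16, -0.40 and -0.25 at the 4 time points, while the median over all genes lay between -0.03 and -0.01. With animal as a block the median member difference was 0.08, -0.07, -0.61 and -0.43. Against the pooled controls no tested member differed by more than 0.73 in either direction from 10 days on. Myh4-203 differed by between -6.54 and -4.52 at these times. Within animals Sox6 differed by -1.01 and Tead1 by -0.91 at 20 days, beside -6.28 for Myh4-203.

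The trained and contralateral muscles of a rat share an animal, and the same comparison with animal as a block changed several calls. Within animals 1 member was lower (Tbx15) and 1 higher (Tead4) both after 2 days, beside 9.8% and 11.8% of all genes, and after 10 days, beside 8% and 12.1%. After 20 days 4 were lower (Six4, Eya1, Sox6 and Tbx15) and 1 higher (Vgll2), beside 7.42% and 9.94%. After 30 days 2 were lower (Eya1 and Tbx15) and 0 higher, beside 5.09% and 7.21%. The calls shared by both designs were Tbx15 at 10, 20 and 30 days and Eya1 and Vgll2 at 20 days, of which those of Eya1 and Vgll2 did not pass against time-matched controls (adjusted p = 0.121 and 0.0652) or on the values as deposited (adjusted p = 0.0635 and 0.0634).

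**Figure D1:**
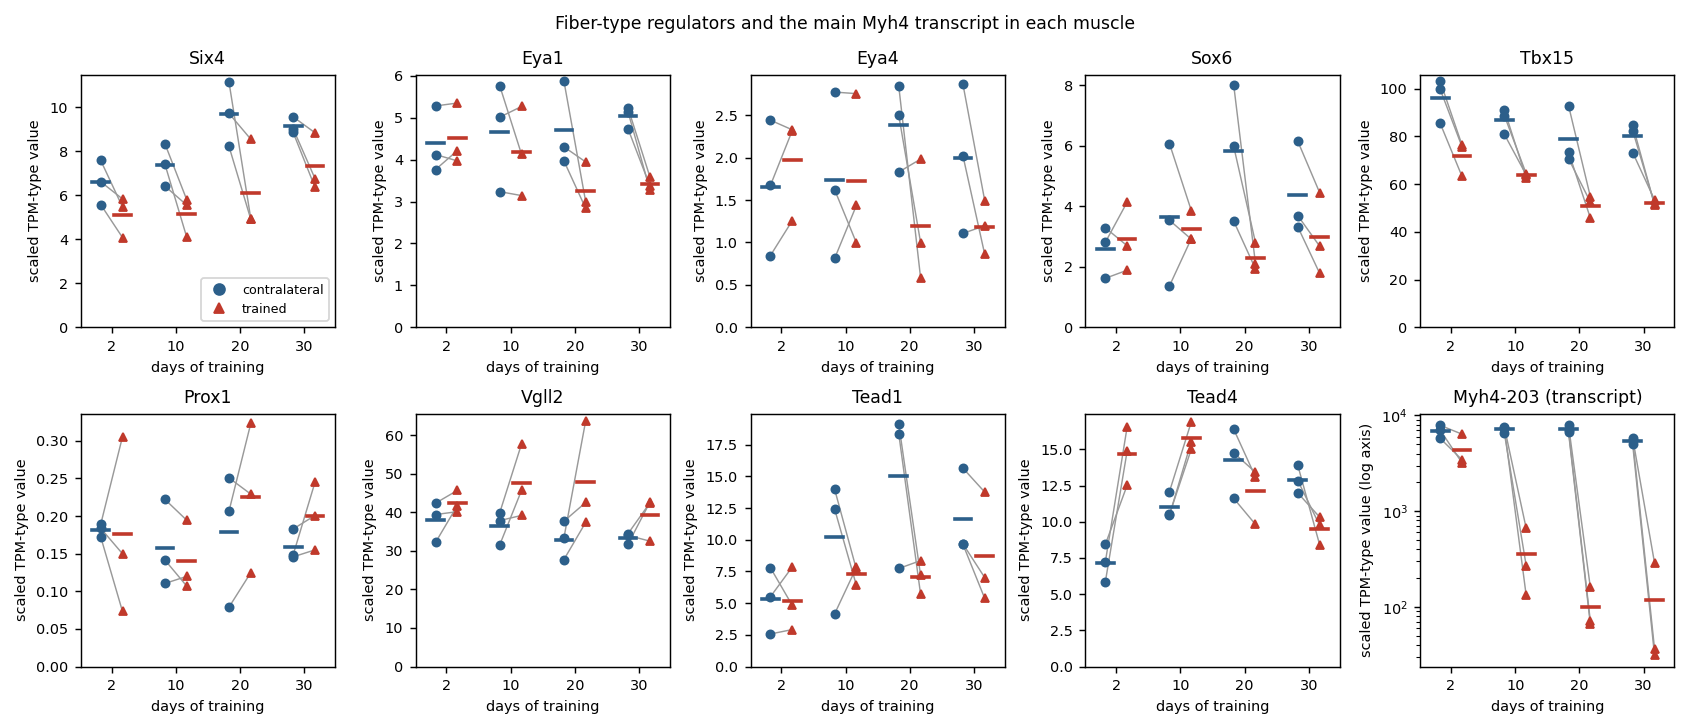
Scaled TPM-type value of each of the 9 members and of Myh4-203 in all 24 muscles, by days of training, with circles for contralateral muscles, triangles for trained muscles, a gray line joining the muscles of an animal and short bars for group means (n = 3); the Myh4-203 axis is logarithmic. Tbx15 and Six4 were lower in the trained leg of 12 of 12 animals, and Tead4 was higher at 2 and 10 days and lower at 20 and 30 days.

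Tbx15 was lower in trained muscles at 10, 20 and 30 days in both designs. The 12 contralateral muscles held between 70.7 and 103.0, with a median of 85.0. The trained muscles held 76.3, 63.2 and 75.6 after 2 days, 64.3, 63.8 and 62.6 after 10 days, 52.5, 45.8 and 54.7 after 20 days and 53.4, 51.4 and 51.6 after 30 days. From 10 days on every trained muscle was below every contralateral muscle, and the trained leg was the lower one in 12 of 12 animals. The difference against pooled controls was -0.25 at 2 days (adjusted p = 0.0741), -0.41 at 10 days (adjusted p = 0.00345), -0.73 at 20 days (adjusted p = 1.29e-05) and -0.69 at 30 days (adjusted p = 3.49e-05), and the 2-day value passed without contralateral replicate 1 of the 20-day animals (-0.27, adjusted p = 0.0446). Within animals Tbx15 was already lower at 2 days, by -0.42 (adjusted p = 0.0144), and the step from 2 to 30 days was not past the threshold (-0.19, adjusted p = 0.540), whereas trained muscles compared directly were lower after 30 than after 2 days (-0.45, adjusted p = 0.0200). In that direct comparison 1 of 8 members was lower and 0 higher, beside 7.91% and 7.07% of all genes, and within animals also 1 and 0 (Tead4), beside 1.46% and 1.35%. The contralateral level of Tbx15 was 96.0 ± 9.35 at 2 days and 80.1 ± 6.06 at 30 days (n = 3 each), so the trained and contralateral values at 2 days both stood toward the top of their ranges.

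The 250 bases before the Tbx15 start site (GRCr8, chr2:189265123-189265372, plus strand) are shown for this member. The letters of all 4 motifs were absent from the window, so none are in capitals.
Tbx15 promoter: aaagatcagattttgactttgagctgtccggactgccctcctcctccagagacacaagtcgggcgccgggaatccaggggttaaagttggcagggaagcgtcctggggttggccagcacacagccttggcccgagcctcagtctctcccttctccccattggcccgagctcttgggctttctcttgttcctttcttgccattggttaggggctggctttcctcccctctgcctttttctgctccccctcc
Of the 9 members 5 had a promoter in the RefSeq table, Six4, Eya4, Sox6, Tbx15 and Vgll2. Among these the search found 1 E-box in Eya4 and, in Sox6, E-boxes and the SOX core. The Sox6 window lies on the minus strand, whereas the deposited annotation has Sox6 on the plus strand. It may therefore not be the promoter of the measured transcript.

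Six4 was lower in the trained leg of all 12 animals but by amounts that moved with the choice of control. The contralateral muscles lay between 5.58 and 11.1, with a median of 8.29. The trained muscles held 5.84, 4.08 and 5.47 at 2 days, 5.56, 4.11 and 5.81 at 10 days, 4.93, 4.91 and 8.55 at 20 days and 6.37, 6.77 and 8.85 at 30 days. At 2, 10 and 20 days 2 of 3 trained muscles lay below all contralateral muscles, and at 30 days none did. Six4 fell by 0.58 at 2 days (limma, adjusted p = 0.00926) and by 0.57 at 10 days (adjusted p = 0.00973) and differed by -0.39 at 20 days (adjusted p = 0.0934) and -0.14 at 30 days (adjusted p = 0.599). With animal as a block only the 20-day value passed (-0.61, adjusted p = 0.0155), while 2 days gave -0.31 (adjusted p = 0.171) and 10 days -0.45 (adjusted p = 0.0559). Against pooled controls each call rested on a single muscle: without trained replicate 2 the difference was -0.45 at 2 days (adjusted p = 0.128) and -0.44 at 10 days (adjusted p = 0.101). The 20-day difference passed without trained replicate 3 (-0.62, adjusted p = 0.0157) or without contralateral replicate 2 of the 2-day animals (-0.43, adjusted p = 0.0464). The contralateral muscles themselves ran from 6.60 ± 1.01 in the 2-day animals to 9.70 ± 1.46 in the 20-day animals (n = 3 each).

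Eya1, a coactivator of SIX4, was lower late in training. The contralateral muscles lay between 3.24 and 5.88, with a median of 4.87. Trained muscles held 5.35, 4.22 and 3.97 at 2 days and 3.14, 4.13 and 5.27 at 10 days, then 2.99, 3.95 and 2.84 at 20 days and 3.28, 3.38 and 3.59 at 30 days. The early groups sat within or at the edge of the contralateral range, and the late groups at its bottom, with the trained leg lower in 6 of 6 animals at 20 and 30 days. Eya1 fell by 0.42 at 20 days (adjusted p = 0.0279) and differed by -0.35 at 30 days (adjusted p = 0.0630), where the within-animal value passed (-0.45, adjusted p = 0.0450). Without trained replicate 1 or 3 the 20-day difference was -0.37 or -0.35 and no longer passed (adjusted p = 0.125 and 0.141). The 30-day difference passed without contralateral replicate 2 of the 2-day animals (-0.38, adjusted p = 0.0469) or replicate 1 of the 10-day animals (-0.39, adjusted p = 0.0277). The longer transcript carried the 20-day difference: Eya1-201 held 1.41, 2.32 and 1.32, all below the lowest contralateral value of 2.65, and fell by 0.76 (adjusted p = 0.00164), whereas Eya1-202 held 1.58, 1.63 and 1.52 against a contralateral median of 1.09 and differed by 0.34 (adjusted p = 0.437). How reads are shared between overlapping transcripts of a gene is an estimate. Eya4, the other EYA member, held 0.811 to 2.87 in the contralateral muscles and 0.583, 0.999 and 1.98 after 20 days, with differences of 0.04, -0.11, -0.43 and -0.39 at the 4 time points and no adjusted p under 0.205.

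Sox6, a repressor of slow genes, differed within animals and not against the pooled controls. Contralateral muscles lay between 1.37 and 8.02, with a median of 3.52, and trained muscles held 4.14, 1.89 and 2.69 at 2 days, 2.93, 2.91 and 3.86 at 10 days, 2.11, 2.80 and 1.93 at 20 days and 2.68, 1.78 and 4.45 at 30 days. All trained values fell inside the contralateral range. Against pooled controls the 20-day difference was -0.55 (adjusted p = 0.200), while within animals Sox6 fell by 1.01 at that time (adjusted p = 0.00648), the opposite legs of those animals holding 8.02, 5.98 and 3.51. Sox6 was lower in the trained leg of 6 of 6 animals at 20 and 30 days and of 3 of 6 at 2 and 10 days. Prox1, on the slow side, differed within animals by between -0.13 and 0.13 on the log2(value + 1) scale at values so low that no direction was read from it.

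Vgll2, the VGLL cofactor of TEAD proteins, was the 1 member higher against pooled controls. Contralateral muscles held between 27.7 and 42.4, with a median of 34.3, and trained muscles 41.8, 40.2 and 45.7 at 2 days, 45.7, 57.7 and 39.2 at 10 days, 42.6, 63.8 and 37.4 at 20 days and 42.4, 42.6 and 32.5 at 30 days. At 2 days 1 of 3 trained muscles lay above all contralateral muscles and at 10, 20 and 30 days 2 of 3 did, at 30 days only just, and the others lay within the contralateral range. Vgll2 was higher by 0.42 at 10 days (adjusted p = 0.0257) and by 0.41 at 20 days (adjusted p = 0.0367), and differed by 0.27 at 2 days (adjusted p = 0.140) and 0.15 at 30 days (adjusted p = 0.485). With animal as a block the 20-day difference held at 0.50 (adjusted p = 0.0410) and the 10-day one did not pass (0.36, adjusted p = 0.120). Without trained replicate 1 or 2 the pooled difference was 0.43 or 0.27 at 10 days (adjusted p = 0.0716 and 0.241) and 0.47 or 0.19 at 20 days (adjusted p = 0.0540 and 0.424).

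Tead4 showed the largest shift from 2 to 30 days of any member with animal as a block, and both legs moved. The contralateral muscles held 8.44, 7.22 and 5.84 in the 2-day animals, 10.5, 12.1 and 10.5 in the 10-day animals, 16.4, 14.8 and 11.6 in the 20-day animals and 12, 12.8 and 13.9 in the 30-day animals. The trained muscles held 12.5, 16.6 and 14.9, then 15.5, 16.9 and 15, then 13.1, 13.4 and 9.82, and last 10.3, 9.76 and 8.42. From 10 to 20 days the trained mean went from 15.8 to 12.1 while the contralateral mean went from 11 to 14.3, and in the other steps both means moved the same way. Tead4 was therefore higher in the trained leg of 6 of 6 animals at 2 and 10 days and lower in 6 of 6 at 20 and 30 days. Within animals it rose by 0.94 at 2 days (adjusted p = 0.000346) and by 0.49 at 10 days (adjusted p = 0.0234), differed by -0.22 and -0.41 at 20 and 30 days (adjusted p = 0.306 and 0.0709), and the difference between the 30- and 2-day effects was -1.35 (adjusted p = 0.00447). Against the pooled contralateral muscles no time point passed, with differences of 0.38, 0.49, 0.12 and -0.19 (adjusted p from 0.0578 to 0.714). The 10-day difference passed without contralateral replicate 1 or 2 of the 20-day animals (0.54 and 0.53, adjusted p = 0.0296 and 0.0408) or replicate 3 of the 30-day animals (0.52, adjusted p = 0.0468), on the values as deposited (0.60, adjusted p = 0.0354) and in the gene-level table (0.35, adjusted p = 0.0352). In a limma F test among the 4 contralateral groups Tead4 had the lowest adjusted p of the members, 0.144 over 10517 genes, and did not pass. In that test 0 of 8 members and 7 genes in all passed, 2 members (Six4 and Tead4) and 1153 genes had an unadjusted p under 0.05, and no other tool was run on it.

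Tead1 had the widest contralateral spread for its level, from 2.57 to 19.1 with a median of 9.65. Trained muscles held 7.85, 2.92 and 4.83 at 2 days, 7.82, 6.39 and 7.66 at 10 days, 5.70, 7.20 and 8.35 at 20 days and 7.01, 5.37 and 13.8 at 30 days. These all lay inside the contralateral range. The differences of -0.81, -0.31, -0.36 and -0.17 did not pass (lowest adjusted p = 0.118), nor did those within animals (lowest adjusted p = 0.0754, at 20 days). Without contralateral replicate 2 of the 2-day animals, which held 2.57, the 2-day difference was -0.94 and passed (adjusted p = 0.0336).

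**Figure D2:**
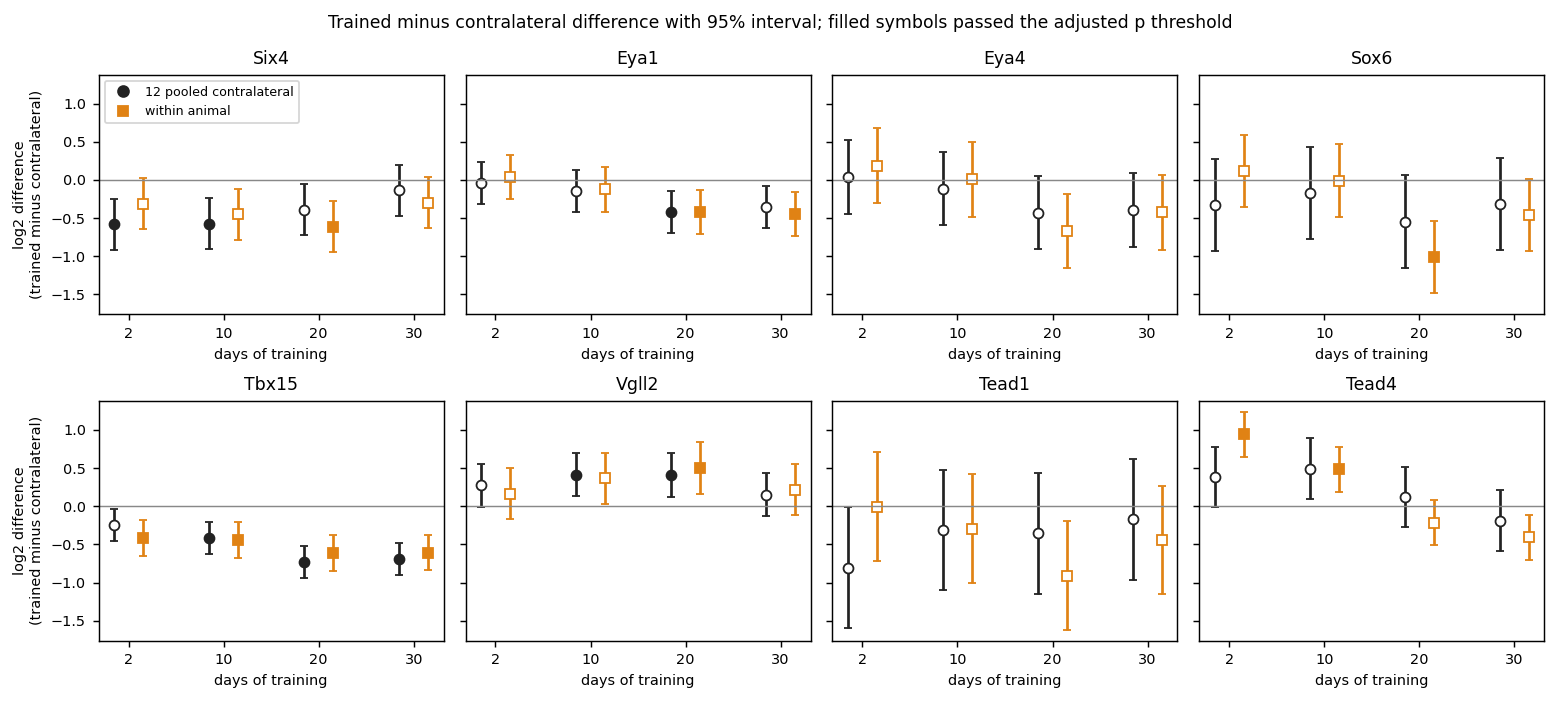
Log2 difference of the trained from the contralateral muscle, on the log2(value + 1) scale, for the 8 tested members by days of training, with 95% intervals, black circles for the fit against 12 pooled contralateral muscles and orange squares for the fit with animal as a block; filled symbols have an adjusted p under 0.05. Tbx15 lies below 0 throughout, Vgll2 above 0, and the Tead4 squares move from 0.94 at 2 days to -0.41 at 30 days.

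Several members rose and fell together from one contralateral muscle to the next. Of 28 pairs of members, 10 had a Pearson r past an adjusted p of 0.05 in a 2-sided permutation test over the 12 contralateral muscles, 9 of them positive. How many pairs of other genes would pass was not counted, so this count is not read as particular to the members. The closest was Sox6 with Tead1, with r = 0.94 (adjusted p = 0.00112, Spearman rho = 0.92, permutation adjusted p = 0.00168) and r = 0.94 without the 2 muscles farthest from the Sox6 median. Eya4 with Sox6 had r = 0.88 (permutation adjusted p = 0.00504, rho = 0.79, adjusted p = 0.0228, r = 0.72 without the 2 farthest). Tbx15 with Tead4 was the 1 negative pair, with r = -0.75 (permutation adjusted p = 0.0212, rho = -0.80, adjusted p = 0.0228, r = -0.67 without the 2 farthest). The 12 muscles belong to 4 time points of 3 animals, so this covariation includes the differences between time points, and a batch of 3 is too small for an r of its own.

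Several of the same members also followed the mean level of genes with a long span in the contralateral muscles. A mean of shorter genes and the share of other genes with such an r were not computed, so a link to gene length was not tested. The mean log2 level of 1084 tested genes that span at least 100 kb, with the members left out, ran from 2.35 to 2.64 in the contralateral and from 2.41 to 2.65 in the trained muscles, and the lowest contralateral values were those of a 2-day (2.35) and a 10-day (2.43) animal. Of the members 5 span that length themselves (Eya1, Eya4, Sox6, Tbx15 and Tead1). Over the 12 contralateral muscles Tead1 followed it with r = 0.94 (2-sided permutation p = 2e-05, the smallest these permutations can give, adjusted p over 8 members = 0.00016, rho = 0.91, r = 0.87 without the 2 farthest). Six4, which spans only 13.7 kb, had r = 0.90 (permutation adjusted p = 0.00016, rho = 0.80, adjusted p = 0.00568, r = 0.83 without the 2 farthest), and Sox6, which spans 510 kb, had r = 0.89 (permutation adjusted p = 0.00016, rho = 0.97, adjusted p = 0.00032, r = 0.84). Tbx15 ran the other way by rank (rho = -0.65, permutation adjusted p = 0.0339) but did not pass by Pearson r (-0.43, permutation adjusted p = 0.180, -0.82 without the 2 farthest), and Vgll2 passed neither (r = -0.11, permutation adjusted p = 0.751). Eya1 (r = 0.69), Eya4 (r = 0.77) and Tead4 (r = 0.70) passed by Pearson r (highest permutation adjusted p = 0.0328), and without the 2 farthest muscles r was 0.31, 0.41 and 0.86, so for Eya1 and Eya4 the relation rests on those muscles. Over the 12 trained muscles Tead1 again had r = 0.90 (permutation adjusted p = 0.00192, rho = 0.80, adjusted p = 0.0210, r = 0.73 without the 2 farthest) and Six4 r = 0.76 (permutation adjusted p = 0.00896, rho = 0.74, adjusted p = 0.0302, r = 0.56). The other 6 did not pass there: Sox6 had r = 0.61 (permutation adjusted p = 0.0783), Eya4 0.36, Eya1 -0.07, Tbx15 -0.15, Vgll2 -0.38 and Tead4 -0.58 (permutation adjusted p = 0.0800), so that Tead4 had the opposite sign on the trained side. What moves this level between muscles was not tested.

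With the long-gene level as a covariate, a fit chosen after these values were seen, 3 members were lower at 10 days, 4 at 20 days and 6 at 30 days, beside 16.1%, 12% and 12.2% of all genes. The 6 at 30 days were Six4 (-0.29, adjusted p = 0.0357), Eya1 (-0.43, adjusted p = 0.0118), Eya4 (-0.60, adjusted p = 0.00796), Sox6 (-0.60, adjusted p = 0.0113), Tbx15 (-0.67, adjusted p = 5.48e-05) and Tead1 (-0.58, adjusted p = 0.00966). Tbx15 and Vgll2 kept the calls they had without it.

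**Figure D3:**
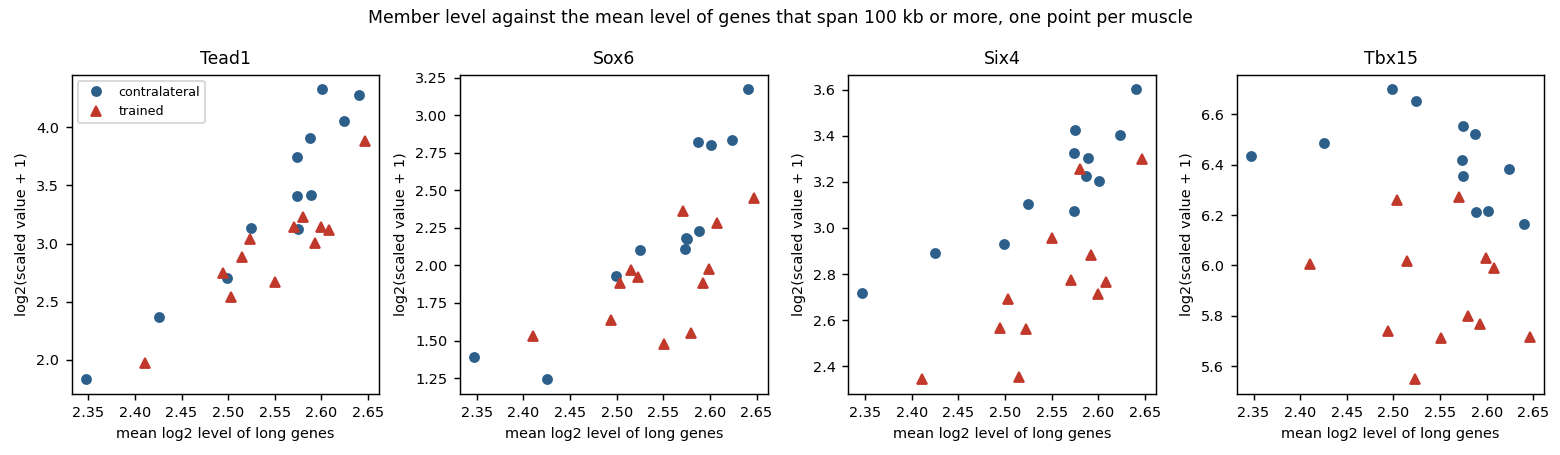
Log2(scaled value + 1) of Tead1, Sox6, Six4 and Tbx15 against the mean log2 level of 1084 genes that span at least 100 kb, 1 point per muscle, with circles for contralateral and triangles for trained muscles. Tead1, Sox6 and Six4 climb with the long-gene level in the contralateral muscles (r = 0.94, 0.89 and 0.90). The Tbx15 values of muscles trained for 10, 20 or 30 days lie below those of all contralateral muscles, while those of muscles trained for 2 days partly overlap them.

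On the rescaled values no member followed Myh4-203 muscle by muscle past the adjusted threshold within either side. Over the 12 contralateral muscles r ran from -0.06 (Tead4) to 0.40 (Eya4), and 0 of 8 members had an unadjusted permutation p under 0.05. On the values as deposited r ran from 0.31 (Tead4) to 0.73 (Tbx15) in the same muscles, Eya4, Tbx15 and Vgll2 had an unadjusted permutation p for r under 0.05 (adjusted p = 0.0907 for each), and Eya1 passed by rank (rho = 0.76, permutation adjusted p = 0.0467) but not by Pearson r (0.58, permutation adjusted p = 0.103, 0.53 without the 2 farthest). Over the 9 muscles trained for 10, 20 or 30 days 0 of 8 passed the adjusted threshold and 1, Sox6, had an unadjusted exact permutation p under 0.05, with r = 0.70 (2-sided exact permutation p = 0.0385, adjusted p = 0.308), rho = 0.75 (exact permutation p = 0.0255, adjusted p = 0.204) and r = 0.74 without the 2 muscles farthest from the Myh4-203 median. Tbx15 in these muscles had r = 0.55 (exact permutation p = 0.127, adjusted p = 0.351, rho = 0.42, r = 0.46 without the 2 farthest). Those 9 muscles span 3 time points, so a shared change with time enters each r.

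**Figure D4:**
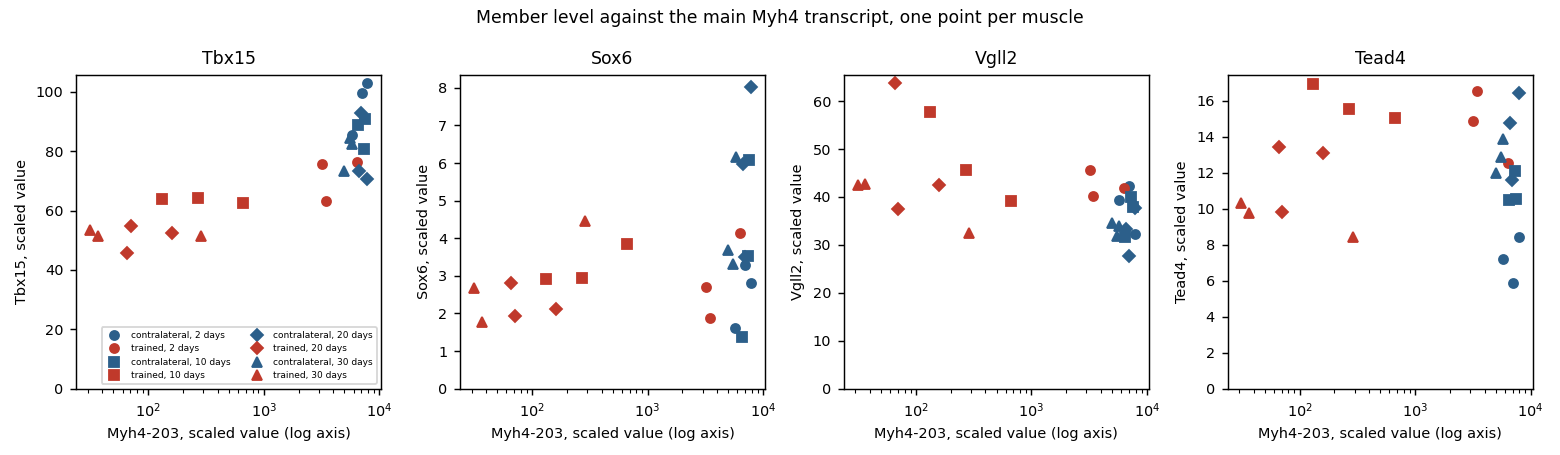
Scaled value of Tbx15, Sox6, Vgll2 and Tead4 against Myh4-203 on a logarithmic axis, 1 point per muscle, in blue for contralateral and red for trained muscles and with a symbol for each time point. Muscles trained for 10 days or longer lie at Myh4-203 values of 663 and below, all contralateral muscles at 4974 and above, and Tbx15 is lower in the first cloud than in the second.

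The genes around the members were counted from lists chosen beside them, against the pooled contralateral muscles unless a block is named. Of 15 tested TEAD cofactors and Hippo pathway genes 2, 2, 0 and 0 were higher and 1, 0, 1 and 1 lower at the 4 time points, which is at or below the shares of all genes (15.4%, 15.6%, 11.7% and 11.1% higher and 13.5%, 13.3%, 9.64% and 9.46% lower). The higher ones included Sav1, an adaptor of the Hippo kinases (0.49 at 2 days, adjusted p = 0.000633), and the lower ones Amotl1, an angiomotin that holds YAP (-1.31 at 20 days, adjusted p = 0.00245). Of 10 tested genes known as YAP and TEAD targets 7, 6, 5 and 5 were higher and 0 lower, and with animal as a block 7, 6, 5 and 3 were higher and 0, 0, 1 and 0 lower. Ankrd1, a stretch-responsive muscle ankyrin repeat protein, held 10.5 ± 7.44 in the contralateral muscles (n = 12) and averaged 1564, 282, 45.9 and 53.6 in the trained groups, a difference of 6.92 at 2 days (adjusted p = 4.41e-10) and 2.47 at 30 days (adjusted p = 0.00114).

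Of 18 tested fast fiber genes 11, 10, 8 and 8 were lower and 0, 1, 0 and 0 higher, and with animal as a block 9, 6, 8 and 7 were lower and 0 higher. Actn3, the fast alpha-actinin, went from 3569 ± 305 to 850 after 30 days (-2.18, adjusted p = 1.57e-08), and Pvalb, the calcium buffer of fast fibers, from 2322 ± 377 to 286 (-3.16, adjusted p = 1.57e-08). Of 17 tested slow fiber genes 4, 5, 4 and 4 were higher and 7, 1, 1 and 1 lower, and with animal as a block 4, 5, 4 and 3 were higher and 2, 0, 2 and 0 lower. The higher ones included Csrp3, a muscle LIM protein (4.04 at 2 days, adjusted p = 4.05e-08), and Lmod2, a leiomodin of thin filaments (2.56 at 2 days, adjusted p = 7.55e-10). Mb, also on this list, was lower at 2 days (-0.64, limma, adjusted p = 0.000532) and higher at 30 days (0.65, adjusted p = 0.000877). The median difference of the tested slow fiber genes was -0.50, -0.20, -0.03 and -0.22 at the 4 time points. Of 22 tested other fiber type regulators 4, 3, 2 and 2 were higher and 4, 5, 5 and 5 lower, with the higher ones near the shares of all genes. With animal as a block 4, 3, 2 and 2 were higher and 4, 3, 4 and 5 lower. Beside the fast, slow and other lists, all genes gave 15.4%, 15.6%, 11.7% and 11.1% higher and 13.5%, 13.3%, 9.64% and 9.46% lower. With animal as a block these shares were 11.8%, 12.1%, 9.94% and 7.21% higher and 9.8%, 8%, 7.42% and 5.09% lower. Rcan1, a target and modulator of calcineurin, was higher throughout (2.86 at 2 days, adjusted p = 1.03e-09, and 1.77 at 30 days, adjusted p = 3.93e-06), while Mafa, a large MAF factor, fell by 2.06 at 30 days (adjusted p = 3.06e-05), from 19 ± 4.67 to 3.89.

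Genes whose pattern over the 24 muscles was most like that of a member were named by Pearson r alone, and since all points share the training groups they carry no p. Tbx15 was closest to Alg2 (r = 0.93) and Jph1 (r = 0.91), Six4 to Mtmr9 (r = 0.92) and Usp24 (r = 0.90), Eya1 to Zdhhc5 (r = 0.81) and Chd7 (r = 0.80), and Vgll2 to Adamtsl5 (r = 0.84) and Rhbdf1 (r = 0.82).

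All 7 myofiber markers in the table had means above 1 in every group. Their summed levels were 61214 to 73926 in the contralateral and 48516 to 82932 in the trained muscles. These values mark the samples as muscle but cannot tell the TA from another muscle. Fibroblast and macrophage markers were also higher in trained muscles. All tested genes gave 15.4%, 15.6%, 11.7% and 11.1% higher and 13.5%, 13.3%, 9.64% and 9.46% lower at the 4 time points. With animal as a block the shares were 11.8%, 12.1%, 9.94% and 7.21% higher and 9.8%, 8%, 7.42% and 5.09% lower. For satellite cell, Schwann cell and smooth muscle and pericyte markers the counts are too small to set apart from these shares. Of 7 fibroblast markers 4, 6, 6 and 6 were higher at the 4 time points, the sum going from between 91.1 and 281 in the contralateral to between 323 and 1024 in the trained muscles, and of 7 macrophage markers 6, 6, 7 and 7 were higher, the sum going from between 8.97 and 24.4 to between 25.6 and 66.4. Of 6 tested endothelial markers 0, 3, 4 and 1 were higher and 1, 0, 0 and 0 lower, of 4 lymphatic endothelial markers 3, 2, 1 and 1 were higher, and 4 of 6 lymphatic markers in the table averaged under 1 in the contralateral muscles. Of 4 tested satellite cell markers 1, 1, 0 and 0 were higher and 1, 0, 0 and 0 lower, of 5 Schwann cell markers 0 were higher and 0, 0, 0 and 2 lower, and of 6 smooth muscle and pericyte markers 2, 2, 1 and 1 were higher and 1, 0, 0 and 0 lower. With animal as a block 0, 3, 4 and 0 endothelial, 2, 1, 1 and 1 lymphatic, 0, 1, 0 and 1 satellite cell, 0, 0, 0 and 1 Schwann cell and 0, 1, 1 and 2 smooth muscle and pericyte markers were higher, and 0 of these were lower. In whole muscle fewer fibers of a type and less RNA per fiber cannot be told apart, and the part of these cells in the member differences was not tested.

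Among the libraries, mitochondrially encoded mRNA took between 23.4% and 43.9% of the deposited total, most in the 3 muscles trained for 30 days (39.9% to 43.9%) and in 1 contralateral muscle of a 30-day animal (43.7%), which also had the lowest scaling factor. Without that contralateral muscle no call for a member changed. The values as deposited, without the scaling factor, moved the median of all genes at 30 days to -0.18 and the share of higher genes among those that changed from 54.0% to 20.0% at 30 days, from 53.4% to 74.5% at 2 days and from 53.9% to 75.5% at 10 days. On that scale Tbx15 passed at 20 and 30 days and not at 10 days (-0.29, adjusted p = 0.123).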

How the data were processed

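Poly-A RNA of 24 TA muscles was sequenced by the authors as paired-end reads, which were aligned with STAR to rn6 and quantified to Ensembl transcripts in Partek Flow, and DESeq2 is also named in the submitters' processing notes. The deposited transcript values were treated as TPM-type, since every sample has an equal total, which keeps no depth, so the depth is unknown and no counting error can be given. The study names DESeq2 median-of-ratios normalization for them, which would not make totals equal, and scaling for transcript length could not be shown. A second deposited table holds a scaled signal for 4635 genes and served as an alternative. A table of the authors' own p-values, FDR and ratios was not used.

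Transcript values were summed per gene symbol, and each muscle was rescaled by the median of its ratios to the geometric mean over 16230 transcripts above 0 in all muscles. Genes with at least 1 in at least 3 muscles were kept (11196 genes, 13452 transcripts) and tested on log2(value + 1) with limma 3.58.1 in R 4.3.3, with the 12 contralateral muscles as 1 group and 4 trained groups of 3 different animals, Benjamini-Hochberg adjustment over all genes and a threshold of 0.05. A fold change on this scale understates that of low genes. The test was checked on simulated data. Correlations used 100000 permutations, or all of them with 9 muscles (scipy 1.17.1). Groups came from the labels, whose animal numbers pair the legs. Deviations from group means correlated at a median of 0.174 within animals (0.0277 to 0.343 over 12 pairs). Between opposite legs of animals from different time points the median was 0.00835, and other animals of the same time point were not compared. None of 276 pairs of columns were identical.

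The text names all members, Myh4-203, up to 4 genes per list by smallest adjusted p, and the 2 genes most like each called member. Members and lists were chosen with earlier results of these data known. Alternatives were the values as deposited, a pseudocount of 0.1, no filter, animal as a block, time-matched controls, the highest transcript per gene, the gene-level table and leaving out each muscle, and, chosen after seeing the data, the long-gene level as a covariate. Sham-operated animals were not analysed here. The counts of 1 gene list are not reported here.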

Additional observations from a re-analysis of the deposited data

Results flagged for a closer look

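Some differences between time points passed a test of their own in at least 1 design. Among the members, Tbx15 was lower in muscles trained for 30 than for 2 days by -0.45 on the log2 scale (limma, adjusted p = 0.0200), and the Tead4 difference between legs moved by -1.35 between 2 and 30 days with animal as a block (adjusted p = 0.00447). Myh4-203 was lower by -3.84 after 10 than after 2 days, a difference that did not pass with animal as a block (-3.90, adjusted p = 0.125), and by -5.87 after 30 than after 2 days, or by -5.53 with animal as a block.

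Among genes of the lists, compared directly between muscles trained for 30 and 2 days, Ankrd1 differed by -4.45, Pvalb by -2.18, Mafa by -2.09, Actn3 by -1.44 and Rcan1 by -1.09. Lmod2 differed by -0.87, Tgfb2 by -0.61 and Sav1 by -0.49, while Mb differed by 1.29 and Gpd1 by 0.87. With animal as a block Ankrd1 (-5.85, adjusted p = 0.000331), Actn3 (-1.43, adjusted p = 0.0199) and Mb (1.21, adjusted p = 0.0124) still passed, and Pvalb, Mafa, Rcan1, Lmod2, Tgfb2, Sav1 and Gpd1 did not (adjusted p from 0.0525 for Pvalb to 0.426 for Lmod2).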

How the results depend on the processing

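The fall of Myh4-203 at 10, 20 and 30 days and the Tbx15 calls at 20 and 30 days passed in every alternative run for them. Leaving out 1 muscle at a time gave 0 to 2 changed members at 2 days, 1 to 4 at 10 and at 20 days and 1 to 2 at 30 days, 1492 to 3496, 2130 to 3295, 1730 to 2500 and 1469 to 2438 changed genes, and Myh4-203 differences of -0.99 to -0.49, -5.12 to -3.96, -6.57 to -5.94 and -7.56 to -5.98. With animal as a replicate block, that is, paired by animal, 2, 5 and 2 members changed at 2, 20 and 30 days (1, 3 and 1 without it) and 1377 genes at 30 days (2304 without it). Time-matched controls gave 2 members at 2 days, 3 at 20 days (Six4, Sox6 and Tbx15 in place of Eya1, Tbx15 and Vgll2) and 2007, 1589 and 1121 genes at 10, 20 and 30 days. Both of these turned the sign of Eya1 (0.0343) and Sox6 (0.119) at 2 days, Eya4 at 10 days (0.00886) and Tead4 at 20 days (-0.22). The values as deposited gave 0, 1 and 2 members at 2, 20 and 30 days and 3 between trained groups (1 with rescaled values and no covariate), with Eya1 at 0.0506 at 2 days and Vgll2 at -0.0679 at 30 days. On that scale 731, 745 and 2590 of 11196 genes were lower and 2132, 1163 and 647 higher at 2, 20 and 30 days. Between muscles trained for 30 and 2 days 3044 genes were lower and 250 higher, so the 3 members cannot be set apart from the background. The long-gene covariate, chosen after seeing the data, gave 5 members at 20 days (Six4, Eya1, Sox6 and Tbx15 lower and Vgll2 higher) and 6 at 30 days, all lower. With it 12% and 12.2% of all genes were lower at these times. It gave 3 members between muscles trained for 30 and 2 days, where the share of all genes was not computed, so that count has no background. Eya1 was at 0.0338 at 2 days. The highest transcript per gene gave Eya1 at 0.0322 at 2 days and 0.000951 at 10 days. Single muscles left out turned Eya4 at 2 days (-0.0576 to 0.223; -0.0555, -0.0203, -0.0228 and -0.00299 among them), Eya1 at 2 days (-0.149 to 0.0276) and 10 days (-0.293 to 0.00568), Eya4 at 10 days (-0.369 to 0.0871) and Tead1 at 30 days (-0.522 to 0.0841), none of which passed the threshold. A pseudocount of 0.1 and no filter changed none of the 32 member calls. The causes were not tested. Groups of 3 and an unknown depth limit all members at low levels.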
